A study of Oryctolagus cuniculus with 16 samples.

Results

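The secreted antagonists of Wnt signalling and a transcriptional target of the pathway were followed in the femoral head of rabbits. Genes were taken by their symbol in the deposited count table, from a list of 10: *SFRP1*, *SFRP2*, *SFRP4*, *FRZB*, *DKK1*, *DKK2*, *DKK3*, *WIF1*, *NOTUM* and *AXIN2*. A row was found for 9 of the 10, out of 20255 genes in all, and all 9 passed the filter on low counts, while *NOTUM* was not analysed here. Perthes disease is a childhood osteonecrosis in which the blood supply of the femoral head is interrupted. The study modelled it by surgery on 8-week-old rabbits, in which the neck of the femur was tied off with a suture and the ligamentum teres was cut. Total RNA of the femoral head was sequenced after removal of ribosomal RNA from 5 such rabbits, the Perthes group, and from 3 control rabbits. The study describes its rabbits as purchased wild-type animals, and the labels enter the disease under genotype although it was made by surgery. The age of the controls, whether they had a sham operation and how long after surgery tissue was taken were not given in the sources used here.

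Wnt proteins are lipid-bearing secreted signals that bind Frizzled receptors and the co-receptors LRP5 and LRP6. In the canonical branch this stops a cytoplasmic complex built on Axin from destroying β-catenin, which then acts in the nucleus with TCF and LEF factors. In the skeleton the pathway is known for promoting bone formation and for being held in check by secreted inhibitors of several families. Secreted Frizzled-related proteins and WIF1 bind the Wnt ligands themselves, whereas the Dickkopf proteins DKK1 and DKK2 bind the co-receptors. *AXIN2* is switched on by β-catenin and encodes a scaffold of the complex that destroys it, so its mRNA is widely read as a marker of canonical signalling.

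The annotation in the deposited table shows these relations in part. A Frizzled-type cysteine-rich domain together with a netrin-type module was listed for *FRZB*, *SFRP2* and *SFRP4*, and an N-terminal Dickkopf cysteine-rich region for *DKK1* and *DKK2*. A total of 7 of the 9 genes carried the term for the Wnt pathway in KEGG, and 7 were predicted to be extracellular. The Gene Ontology term for negative regulation of canonical Wnt signalling was attached to 5 of the genes, of which *SFRP2*, *SFRP4* and *DKK2* also carried the term for its positive regulation.

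The libraries held 26757087 to 29461482 counts each. Levels are given as CPM, the counts of a gene relative to a common library total after scaling by the trimmed mean of M-values (TMM), and they were not corrected for gene length, so each gene is compared between rabbits and not with other genes. Differences were tested with the quasi-likelihood F-test of edgeR, with Benjamini-Hochberg adjustment over all 15305 genes tested and a threshold of 0.05. In a principal component analysis of all tested genes, Perthes rabbit 4 lay at -78.4 on the second component against -7.51 to 27.5 for the other 7 rabbits. Because whole tissue was sequenced, fewer cells of a type and less RNA per cell cannot be told apart.

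Of the 9 genes, 4 were higher in the Perthes rabbits at the threshold (*SFRP2*, *DKK2*, *DKK3* and *AXIN2*), 0 were lower, and 5 were not called. Across all tested genes, 6.21% were called higher and 8.86% lower. The count of 0 lower genes was also 0 at an unadjusted p below 0.05 in edgeR, and it was 0 in DESeq2. By either of these rules 5 of the 9 were higher, where all tested genes gave 15.3% higher and 16.6% lower at an unadjusted p below 0.05 in edgeR, and 11.3% higher and 12.5% lower in DESeq2. The median log2 fold change of the 9 genes was 0.80, and that of all tested genes was 0.025. The levels of every Perthes rabbit exceeded those of every control for *SFRP2*, *DKK3* and *AXIN2*, 3 of the 9 genes, whereas this held for 11.2% of all tested genes.

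**Figure D1:**
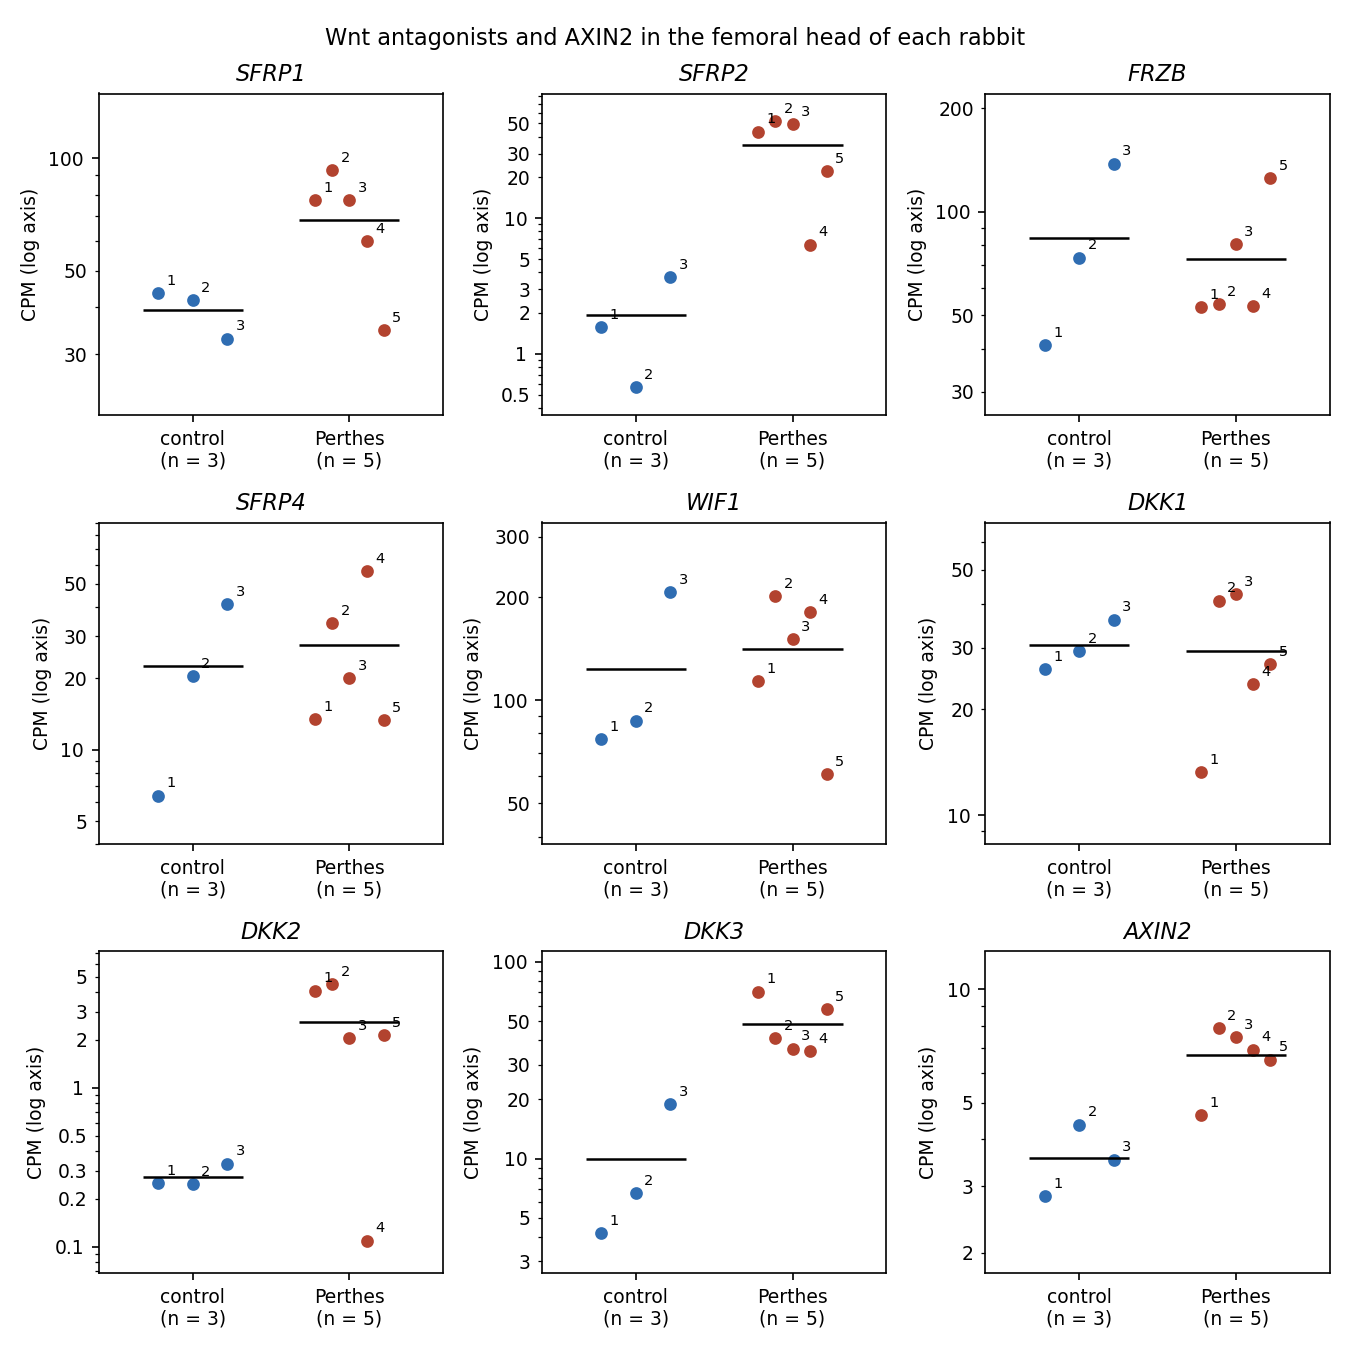
Level of each of the 9 genes in every rabbit, in CPM on a log axis whose range differs between panels. Each point is a rabbit, numbered as in the text, and the bar marks the group mean. The points of *SFRP2*, *DKK3* and *AXIN2* do not overlap between the groups, and Perthes rabbit 4 lies below the controls for *DKK2*.

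*SFRP2* (gene ID 100009572), a secreted Frizzled-related protein made by mesenchymal cells, had the largest difference of the 9 genes. The Perthes rabbits 1 to 5 held 43.5, 52.0, 49.2, 6.37 and 22.2 CPM, and the controls 1 to 3 held 1.57, 0.564 and 3.66 CPM. The groups did not overlap, with Perthes rabbits 1 to 3 close together, Perthes rabbit 4 the nearest to the controls, and control 3 the highest control. The smallest level rested on 16 counts in control 2 and the largest on 1389 counts in Perthes rabbit 2. The mean was 34.6 ± 19.6 CPM (SD, n = 5) in the Perthes group and 1.93 ± 1.58 CPM (SD, n = 3) in the control group. The fitted log2 fold change was 4.16 (SE 0.84, 95% interval 2.27 to 6.05), a 17.8-fold higher level, with an edgeR adjusted p of 0.0163. An exact two-sided permutation test of the mean log2 CPM gave p = 0.0357, the smallest it can give with 5 rabbits against 3. The call was lost without control 1 (log2 fold change 4.03, edgeR adjusted p 0.0745) and without control 2 (3.72, adjusted p 0.0609).

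The other Frizzled-related genes did not pass the threshold. *SFRP1* (gene ID 103352157), which binds Wnt ligands as *SFRP2* does, was at 77.2, 93.1, 77.2, 60.2 and 34.8 CPM in Perthes rabbits 1 to 5 and at 43.6, 41.7 and 33.0 CPM in controls 1 to 3. Perthes rabbits 1 to 4 lay above every control and Perthes rabbit 5 lay between controls 2 and 3. Perthes rabbits had a mean level of 68.5 ± 22.2 CPM (SD, n = 5), compared with 39.4 ± 5.66 CPM (SD, n = 3) in controls. In the fit its log2 fold change was 0.80 (SE 0.30), with an unadjusted p of 0.0240 and an adjusted p of 0.0991 in edgeR, while DESeq2 gave an adjusted p of 0.0494. Without Perthes rabbit 5 the log2 fold change was 0.97 and passed the threshold at an edgeR adjusted p of 0.0405.

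*FRZB* (gene ID 100008629), also known as SFRP3 and first described in cartilage, was at 52.8, 53.8, 80.6, 53.2 and 125 CPM in the Perthes rabbits and at 41.0, 73.6 and 138 CPM in the controls. The lowest and the highest of the 8 levels were both in controls, and the log2 fold change was -0.20 (95% interval -1.15 to 0.74, edgeR adjusted p 0.769). *SFRP4* (gene ID 100342964), a family member expressed in bone, was at 13.5, 34.2, 20.0, 56.6 and 13.3 CPM in the Perthes rabbits and at 6.40, 20.4 and 41.0 CPM in the controls. Here Perthes rabbit 4 was the highest of all rabbits and control 1 the lowest. The log2 fold change of *SFRP4* was 0.28 (95% interval -1.15 to 1.72, edgeR adjusted p 0.790). The levels of *WIF1* (gene ID 100337885), whose product sequesters Wnt ligands outside the cell, were 114, 201, 151, 181 and 60.8 CPM in the Perthes rabbits and 77.0, 87.2 and 206 CPM in the controls. All 5 Perthes rabbits lay below control 3, and the log2 fold change was 0.20 (95% interval -0.79 to 1.18, edgeR adjusted p 0.787). The intervals of *FRZB*, *SFRP4* and *WIF1* reached at least 0.74 on the log2 scale in each direction, so differences within them were not detectable with 5 rabbits against 3.

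Among the Dickkopf genes, *DKK3* and *DKK2* were called higher and *DKK1* was not. *DKK3* (gene ID 100349469), a divergent family member that is not a typical ligand of the co-receptors, was at 70.6, 41.0, 36.2, 35.1 and 57.7 CPM in the Perthes rabbits and at 4.18, 6.66 and 18.9 CPM in the controls. The groups did not overlap, and control 3 was again the highest control. On average *DKK3* was at 48.1 ± 15.5 CPM (SD, n = 5) in the Perthes group and at 9.90 ± 7.86 CPM (SD, n = 3) in the controls. Its log2 fold change was 2.28 (SE 0.50, 95% interval 1.15 to 3.41), a 4.86-fold higher level, with an edgeR adjusted p of 0.0209 and an exact permutation p of 0.0357. The call was lost without control 1 (log2 fold change 1.92, edgeR adjusted p 0.0672) and without control 2 (2.06, adjusted p 0.0860).

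*DKK2* (gene ID 100340336), a co-receptor ligand that can inhibit or stimulate the canonical pathway, split the Perthes rabbits. The levels were 4.09, 4.49, 2.06, 0.109 and 2.14 CPM in Perthes rabbits 1 to 5 and 0.250, 0.247 and 0.333 CPM in controls 1 to 3. Perthes rabbits 1, 2, 3 and 5 lay above every control, whereas Perthes rabbit 4 lay below all of them. These levels rested on 121, 120, 56, 3 and 63 counts in the Perthes rabbits and on 7, 7 and 10 counts in the controls, so the control level rested on few reads. The log2 fold change was 3.20 (SE 0.93, 95% interval 1.09 to 5.30), with an edgeR adjusted p of 0.0493, just inside the threshold, and the exact permutation test gave p = 0.143. Without Perthes rabbit 4 the log2 fold change was 3.51 and the edgeR adjusted p 0.00619. Without any other single rabbit, Perthes or control, the call was lost, with log2 fold changes of 2.90 to 3.35 and adjusted p-values of 0.0684 to 0.154. It was also lost when libraries were scaled by their totals alone (adjusted p 0.0533) or no filter on low counts was used (adjusted p 0.0513).

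*DKK1* (gene ID 100009504), the best-known inhibitor of the co-receptors in bone, was at 13.2, 40.8, 42.6, 23.6 and 26.9 CPM in the Perthes rabbits and at 26.05, 29.3 and 36.1 CPM in the controls. The Perthes rabbits lay on both sides of the controls, with Perthes rabbits 2 and 3 above all of them and Perthes rabbits 1 and 4 below. Group means were nearly equal, at 29.4 ± 12.3 CPM (SD, n = 5) and 30.5 ± 5.10 CPM (SD, n = 3), with a log2 fold change of -0.051 (95% interval -0.83 to 0.73, edgeR adjusted p 0.932).

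*AXIN2* (gene ID 100339765), the target and feedback gene, was at 4.63, 7.86, 7.45, 6.91 and 6.50 CPM in the Perthes rabbits and at 2.82, 4.37 and 3.53 CPM in the controls. Every Perthes rabbit lay above every control, although Perthes rabbit 1 exceeded control 2 only slightly. The Perthes rabbits averaged 6.67 ± 1.25 CPM (SD, n = 5) and the controls 3.57 ± 0.776 CPM (SD, n = 3). For *AXIN2* the log2 fold change was 0.90 (SE 0.25, 95% interval 0.34 to 1.46), a 1.87-fold higher level, with an edgeR adjusted p of 0.0404 and an exact permutation p of 0.0357. This call was also close to the threshold. It was kept without Perthes rabbit 1 (adjusted p 0.0279) and lost without each of the other 7 rabbits, with log2 fold changes of 0.76 to 1.07 and edgeR adjusted p-values of 0.0547 to 0.136.

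**Figure D2:**
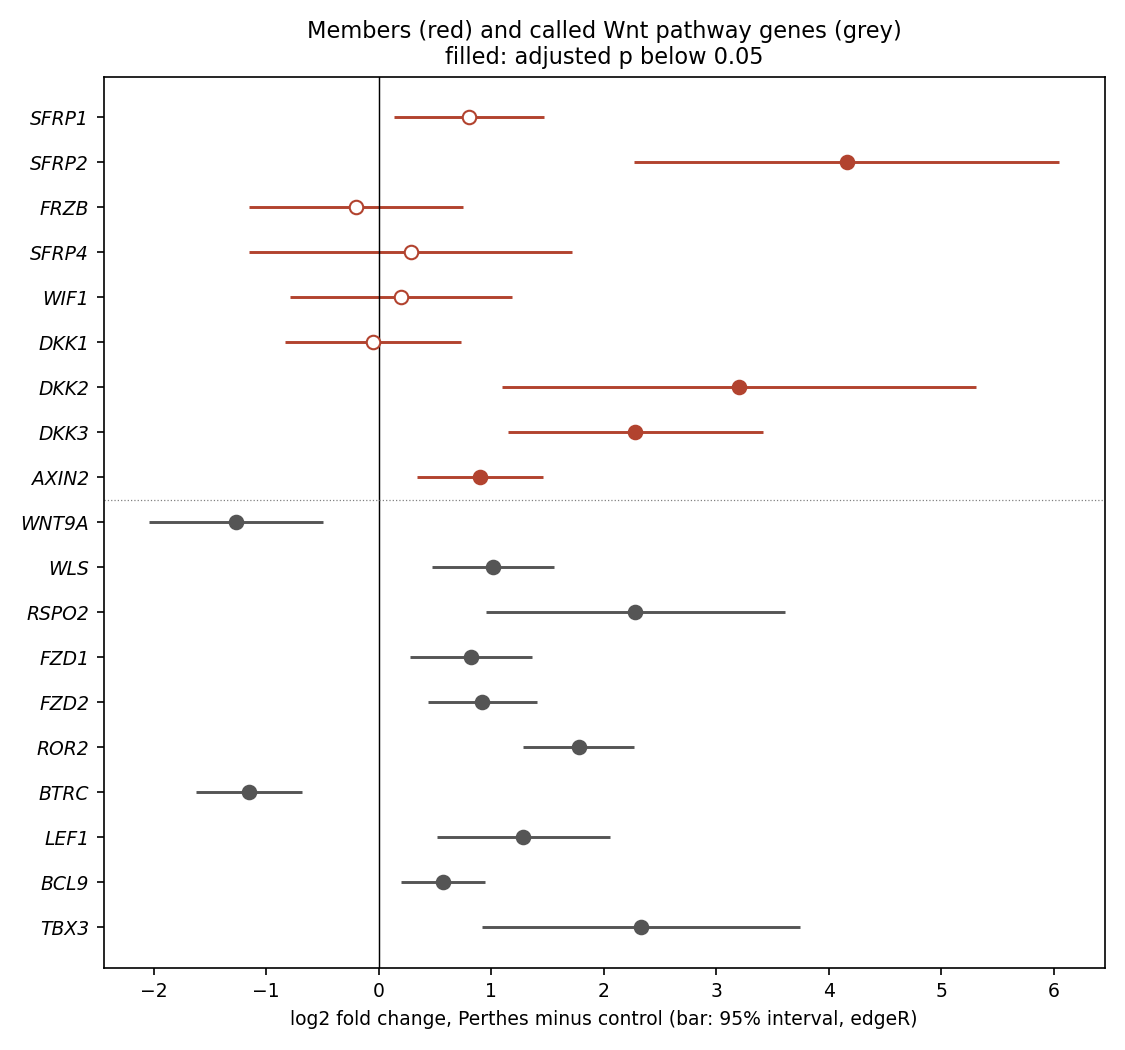
Log2 fold change, Perthes minus control, of the 9 genes in red and of the 10 other Wnt pathway genes called at the threshold in grey. The bars are 95% intervals from edgeR, and filled points had an adjusted p below 0.05. The intervals of *FRZB*, *SFRP4*, *WIF1* and *DKK1* cross 0, and *WNT9A* and *BTRC* lie below 0.

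The genes also differed in how much they varied within a group. In the Perthes rabbits, the coefficient of variation ran from 18.8% for *AXIN2* to 68.6% for *DKK2*, and the highest level of *DKK2* was 41.2 times the lowest. In the controls it ran from 14.4% for *SFRP1* to 81.7% for *SFRP2*. Control 3 held the highest control level for 7 of the 9 genes, the exceptions being *SFRP1* and *AXIN2*, and control 1 held the lowest for 6 genes. Perthes rabbit 2 held the highest Perthes level for 5 genes. The lowest Perthes level fell in rabbit 4 for *SFRP2*, *DKK2* and *DKK3*, in rabbit 5 for *SFRP1*, *SFRP4* and *WIF1*, and in rabbit 1 for *FRZB*, *DKK1* and *AXIN2*. Pairs of genes were compared by the root mean square distance of their centred log2 CPM over the 8 rabbits. A smaller value means a more similar profile, but levels were not scaled for how much a gene varies. Genes that vary little can therefore lie close whatever their pattern. The closest pair was *SFRP1* and *AXIN2* at 0.477, followed by *SFRP4* and *WIF1* at 0.571. Next came the uncalled *DKK1* and the called *AXIN2* at 0.604, and the most distant pair was *SFRP2* and *SFRP4* at 2.39.

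The same distance was used to find, among 12296 named mRNAs, the 3 nearest to each called gene. For *SFRP2* these were *ADAM33*, a membrane-anchored metalloprotease, at 0.451, *CCDC141* at 0.582 and *CPXM1*, a carboxypeptidase-like secreted protein, at 0.697. Their log2 fold changes were 4.48, 4.34 and 3.35. For *DKK3* they were *EMP1*, a membrane protein, at 0.330, *MAB21L1* at 0.336 and *THBS2*, a matricellular thrombospondin, at 0.339. The log2 fold changes of these 3 genes were 2.11, 2.17 and 2.48. For *DKK2* the nearest were the ion channel genes *TRPM1* at 0.460 and *TRPV3* at 0.512 and the interferon-induced *IFIT2* at 0.540. For *AXIN2* they were *RHBDF1*, an inactive rhomboid protein, at 0.0807, *SYDE1* at 0.105 and *PLEKHA4* at 0.138. These genes were picked for their likeness over the same 8 rabbits, so their fold changes are a description.

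Of 98 other genes of the pathway, listed by role, 82 had a row and 75 were tested. A total of 8 were called higher and 2 lower, with a median log2 fold change of 0.17, beside 6.21% and 8.86% of all tested genes. Among 12 tested Wnt ligands, 0 were higher and 1 was lower in edgeR, with 2 and 2 at an unadjusted p below 0.05 and 0 and 2 in DESeq2. Against the 15.3% and 16.6% of all genes that pass unadjusted, 2 and 2 of 12 is near the background. The log2 fold changes ran from -2.03 for *WNT1* (edgeR adjusted p 0.111) to 1.83 for *WNT16* (adjusted p 0.172). The lower ligand was *WNT9A*, a ligand of developing joints, which was at 3.40 to 11.3 CPM (median 5.10) in the Perthes rabbits and at 12.3, 16.4 and 15.8 CPM in the controls. Its log2 fold change was -1.27 (SE 0.34, edgeR adjusted p 0.0386). *WLS*, the carrier that brings Wnt proteins to the cell surface, was higher with 65.8 to 88.97 CPM in the Perthes rabbits and 24.4, 38.7 and 50.7 CPM in the controls (log2 fold change 1.02, SE 0.24, edgeR adjusted p 0.0256). *RSPO2*, an R-spondin that amplifies Wnt signalling, was at 0.322, 0.141 and 1.06 CPM in the controls and at 1.80 to 3.48 CPM in the Perthes rabbits (log2 fold change 2.28, SE 0.59, edgeR adjusted p 0.0334). Its control levels rested on few reads, with 9, 4 and 32 counts.

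At the level of the receptors, 3 of 17 tested genes were higher and 0 were lower in edgeR, the same counts as in DESeq2, with 5 and 0 at an unadjusted p below 0.05. *ROR2*, a receptor tyrosine kinase of the non-canonical branch, was at 27.9, 22.5, 27.6, 33.0 and 28.6 CPM in the Perthes rabbits and at 7.11, 6.59 and 10.7 CPM in the controls. The groups lay far apart relative to their spread, with a log2 fold change of 1.78 (SE 0.22, edgeR adjusted p 0.0118). The Frizzled receptor genes *FZD1* (log2 fold change 0.82, edgeR adjusted p 0.04999) and *FZD2* (0.92, adjusted p 0.0242) were the other 2, and the call of *FZD1* was lost when libraries were scaled by their totals alone (adjusted p 0.0505). Among 11 other antagonists and antagonist receptors, 0 were called in either direction by edgeR and by DESeq2, with 1 higher and 1 lower at an unadjusted p below 0.05. These include *SOST*, which encodes the osteocyte product sclerostin (34.6 CPM against 56.0 CPM in the mean, log2 fold change -0.70, edgeR adjusted p 0.262), *SFRP5* (0.22, adjusted p 0.846) and *KREMEN1*, a receptor for Dickkopf proteins (0.82, adjusted p 0.126).

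Inside the cell, 1 of 12 genes of the cytoplasmic relay was lower and 0 were higher in edgeR, whereas DESeq2 called 2 lower and 0 higher, as did edgeR at an unadjusted p below 0.05. This was *BTRC*, the ubiquitin ligase subunit that recognises phosphorylated β-catenin, at 21.4, 32.7, 21.7, 20.3 and 17.3 CPM in the Perthes rabbits and 43.6, 53.9 and 53.6 CPM in the controls. The groups did not overlap, and the log2 fold change was -1.15 (SE 0.21, edgeR adjusted p 0.0136). Of 9 nuclear factors, 2 were higher and 0 lower in edgeR, against 3 and 1 in DESeq2 and 3 and 2 at an unadjusted p below 0.05. Factors with a negative log2 fold change included *TCF7* (-0.68, edgeR adjusted p 0.135) and the co-repressor *TLE4* (-0.62, adjusted p 0.0626). The 2 higher genes were *LEF1*, a DNA-binding partner of β-catenin (log2 fold change 1.28, edgeR adjusted p 0.0359), and the co-activator *BCL9* (0.57, adjusted p 0.0480). The call of *BCL9* was lost when libraries were scaled by DESeq2's size factors (adjusted p 0.0517) or by totals alone (adjusted p 0.104). Of 9 further target and feedback genes, 1 was higher and 0 lower in edgeR, against 3 and 0 in DESeq2 and 4 and 0 at an unadjusted p below 0.05. The gene called by edgeR was the transcription factor gene *TBX3*, which was at 1.53 to 5.07 CPM (median 3.27) in the Perthes rabbits and at 0.179, 0.423 and 1.26 CPM in the controls (log2 fold change 2.33, edgeR adjusted p 0.0375). The control levels of *TBX3* rested on 5, 12 and 38 counts. *NKD1*, another feedback inhibitor, had a log2 fold change of 1.01 and did not pass (adjusted p 0.131).

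The calls of these other genes turned on single rabbits, as did those of all tested genes. With all 8 rabbits, 951 of all tested genes were called higher and 1356 lower. Without control 2, 0 of the 75 were called higher and 0 lower by edgeR, against 12 and 6 at an unadjusted p below 0.05. The counts over all tested genes were then also 0 and 0. Without control 1, 1 of the 75 was called in each direction, and the same was found without Perthes rabbit 3. All tested genes gave 73 higher and 184 lower without control 1, and 385 and 646 without Perthes rabbit 3. Without Perthes rabbit 5, 2 of the 75 were higher and 1 was lower, and without control 3, 5 were higher and 1 was lower. All tested genes gave 351 and 550 without Perthes rabbit 5, and 695 and 1183 without control 3. *ROR2* and *BTRC* were each called without 7 of the 8 rabbits in turn. They missed the threshold without control 2, at edgeR adjusted p-values of 0.0519 and 0.0579. No tested gene had an adjusted p below that of *ROR2* without control 2. The other called genes held less well. *WLS*, *RSPO2* and *LEF1* were each called in 4 of these 8 fits, *FZD2* and *TBX3* in 3, and *WNT9A*, *FZD1* and *BCL9* in 1.

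Markers of several cell types moved with the groups, and their counts are to be read against the 6.21% of all tested genes called higher and 8.86% called lower by edgeR, and the 11.3% and 12.5% called by DESeq2. Of 9 tested fibroblast and stroma markers, 4 were higher and 0 lower, among them *COL3A1*, the type III collagen gene (log2 fold change 2.34, edgeR adjusted p 0.0474). The summed level of the list was 16120 to 27672 CPM in the Perthes rabbits and 1953, 3903 and 9963 CPM in controls 1 to 3, with Perthes rabbit 4 at 22678 CPM. Control 3 was the highest control here as it was for 7 of the 9 genes, called and uncalled, *SFRP2* and *DKK3* among them. Perthes rabbit 4, the lowest Perthes rabbit for *SFRP2*, *DKK3* and *DKK2*, had the second highest sum of the 8 rabbits. *COL3A1* made up most of the Perthes sums, at 11736 to 20732 CPM, and single markers ranked Perthes rabbit 4 differently. Within its group it was the highest for *COL6A3* and *PDGFRA*, the lowest for *THY1* and *PDGFRB*, and in between for the other markers of the list. Of 5 tested macrophage markers, 4 were higher and 0 lower, and the list summed to 702 CPM in Perthes rabbit 4, 4956 to 6793 CPM in the other Perthes rabbits and 352 to 367 CPM in the controls. Most of the sum in Perthes rabbits 1, 2, 3 and 5 was *GPNMB*, at 3992 to 5491 CPM against 16.0 to 23.3 CPM in the controls. Other markers differed less, with log2 fold changes of 1.07 for *CSF1R* (edgeR adjusted p 0.0326) and 0.19 for *CD163* (adjusted p 0.740). On this list Perthes rabbit 4 was the lowest Perthes rabbit, as for *SFRP2*, *DKK2* and *DKK3*. For *DKK3* it was nearly level with Perthes rabbit 3, at 35.1 against 36.2 CPM. Control 3 was the lowest control on the macrophage list, but the controls lay close together. The part of these cell types in the levels of the Wnt antagonists was not tested.

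Markers of the resident skeletal cells were less clearly divided. The collagen genes that define cartilage and bone were abundant in every library of the labelled tissue, with *COL2A1* at 29008 to 116594 CPM and *COL1A1* at 44666 to 143897 CPM. Of 10 tested chondrocyte, 7 osteoblast and 5 osteocyte markers, 0 passed the threshold in either direction in edgeR, with median log2 fold changes of 1.02, 0.058 and 0.75. At an unadjusted p below 0.05, 3, 1 and 2 of them were higher and 0 lower, and DESeq2 called 0, 1 and 1 higher and 0 lower. Chondrocyte markers summed to 156965 CPM in Perthes rabbit 4, against 40240 to 82797 CPM in the other Perthes rabbits and 47549 to 69748 CPM in the controls. Perthes rabbit 4 was also the highest rabbit for *SFRP4*. Control 1, the lowest rabbit for *SFRP4*, had a chondrocyte sum of 50356 CPM, above those of Perthes rabbits 1 and 2 and of control 2. Adipocyte markers summed to 129 CPM in Perthes rabbit 4 and to 478 to 1467 CPM in the other 7 rabbits, and *LEP* was at 0 in Perthes rabbits 1 and 4. Of 5 tested adipocyte markers, 0 were called by either tool or had an unadjusted p below 0.05. Of 3 markers of the articular surface and synovial lining and 6 of endothelium, 0 were called in either direction by edgeR, and DESeq2 called 1 of each list higher. At an unadjusted p below 0.05, the articular list had 1 higher and 1 lower and the endothelial list 1 higher and 0 lower.

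Blood and marrow lists lay lower in the Perthes rabbits. The erythroid list summed to 492 to 19775 CPM against 24961 to 41309 CPM in the controls, with 1 of 6 tested markers called lower by edgeR and 4 by DESeq2. The neutrophil list summed to 500 to 2452 CPM against 5576 to 15468 CPM, with 1 of 6 called lower by edgeR and 5 by DESeq2. Most of the Perthes sums was *MMP9*, which did not lie lower, at 483 to 1390 CPM against 605 to 1146 CPM in the controls (log2 fold change 0.34, edgeR adjusted p 0.558). *MPO*, *LTF*, *LCN2*, *CAMP* and *CSF3R* were each lower in every Perthes rabbit than in every control. The B lineage list summed to 5.20 to 24.4 CPM against 25.0 to 41.9 CPM, with 1 of 4 called lower by edgeR and 2 by DESeq2. *VPREB1*, an early B lineage gene, was near the floor in every rabbit and was not tested. It was at 0 in Perthes rabbits 1 and 5 and at 0.133 to 0.143 CPM in the controls. Its highest level, 0.364 CPM, was in Perthes rabbit 4. Perthes rabbit 2, which held the highest Perthes level for 5 of the 9 genes, also had the highest erythroid and B lineage sums of its group. Every control had higher sums of both lists than this rabbit. For these 5 genes, every control had lower levels than this rabbit of *SFRP1*, *SFRP2*, *DKK2* and *AXIN2*, while *WIF1* was higher in control 3. Skeletal muscle markers summed to 0.388 to 9.48 CPM over all libraries, and of 2 tested 0 were called by edgeR or DESeq2, with 0 higher and 1 lower at an unadjusted p below 0.05. The part of these lists in the levels of the 9 genes was not tested.

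The calls of the 4 higher genes depended on the test and on the rabbits included. With DESeq2, *SFRP2*, *DKK2*, *DKK3*, *AXIN2* and *SFRP1* were called. With edgeR and 1 rabbit left out, 0 to 3 of the 9 genes were called, and the count was 0 without control 1 and without control 2. All tested genes fell from 951 higher and 1356 lower to 73 and 184 without control 1, and to 0 and 0 without control 2. *SFRP2* and *DKK3* were each called in 6 of the 8 fits with 1 rabbit left out, and *DKK2* and *AXIN2* in 1 each. Their direction was the same in all of them.

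**Figure D3:**
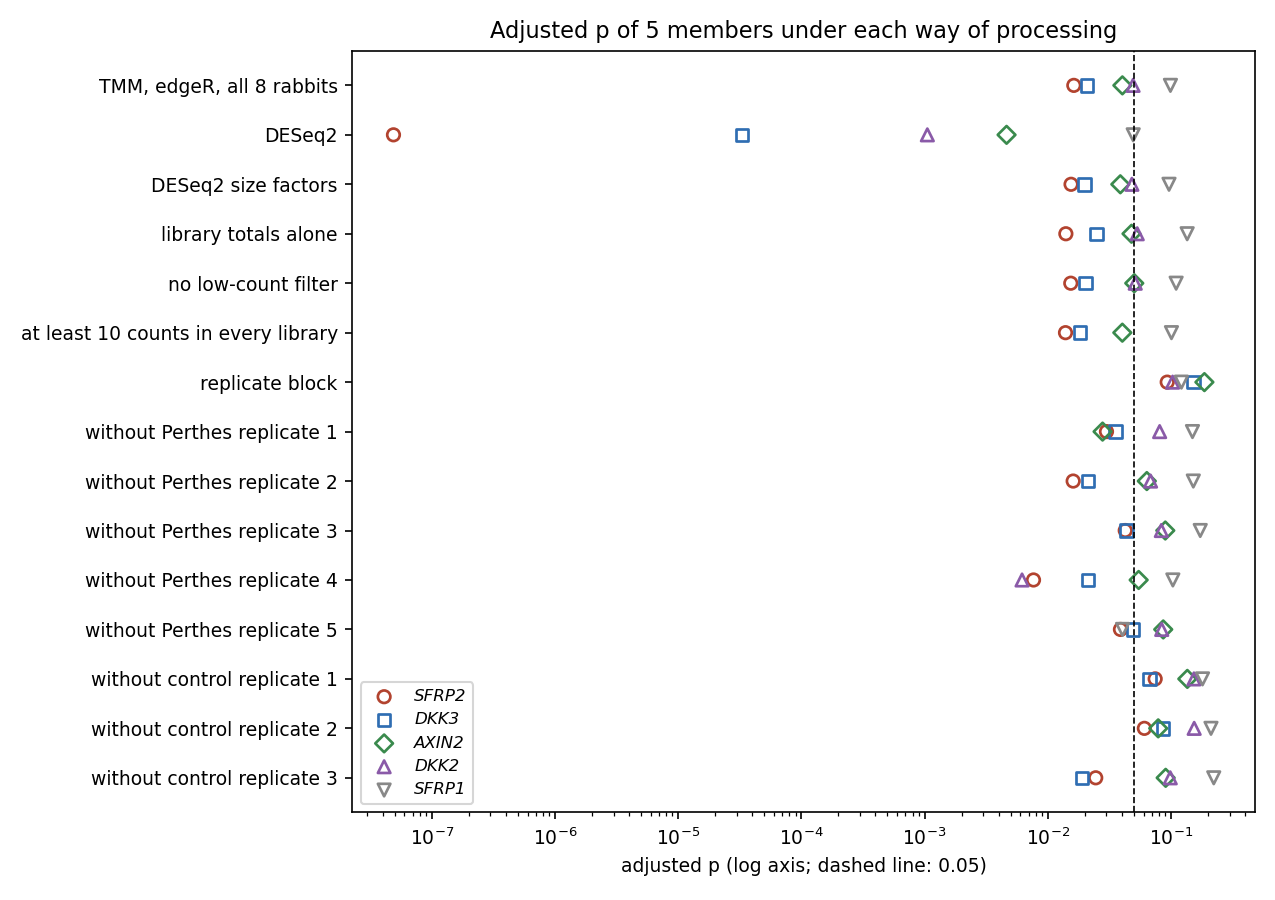
Adjusted p of *SFRP2*, *DKK3*, *AXIN2*, *DKK2* and *SFRP1* under each way of processing, on a log axis with a dashed line at 0.05. *DKK2* has no point where at least 10 counts were required in every library, since it was removed there. Most points of *DKK2* and *AXIN2* lie close to or right of the line, and those of *SFRP2* and *DKK3* cross it without control 1, without control 2 and where the replicate number entered as a block.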

How the data were processed

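Per the labels, RNA of each femoral head was depleted of ribosomal RNA and made into directional libraries. Reads were cleaned with SOAPnuke and aligned to a rabbit assembly by HISAT2 (version 2.0.4), and gene levels came from HTSeq (1.99.2) and RSEM (1.1.17). What the authors made and deposited are expected counts per gene that carry no normalization, with 10.0% to 10.7% non-integer entries per library, which were rounded here. A further 8 columns that duplicate those analysed were not used, nor were the small RNA libraries.

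Samples were grouped by their labels into 5 Perthes and 3 control rabbits, and control rabbit 3 was named by the code in its title. The filterByExpr filter, TMM factors (0.928 to 1.08) and the quasi-likelihood F-test of edgeR 4.0.16 in R 4.3.3 were applied to all genes, with adjustment over 15305 genes and a biological coefficient of variation of 0.361. The standard error was derived from the F statistic. The distances used log2 CPM with a prior count of 2. Single genes were also compared by an exact two-sided permutation test. The method was tested on simulated counts. At these depths, the spread between rabbits limits precision for most genes.

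The genes, the Wnt and marker lists and the tests were chosen with earlier results of these data known. The text names the 10 listed genes, every other Wnt gene called at the threshold, the range of the ligands and the 3 nearest genes of each called gene, while *SOST*, *SFRP5*, *KREMEN1*, *NKD1*, *TCF7*, *TLE4* and the named markers were chosen after their values were seen. Alternatives were DESeq2 1.42.0, other scaling and filters, other thresholds, the replicate number as a block, and leaving out each rabbit.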

Additional observations from a re-analysis of the deposited data

Results flagged for a closer look

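Among the 9 genes and the 10 other Wnt genes called, 1 of the 19 Perthes groups held a rabbit that stood apart by Dixon's criterion. For *BTRC*, Perthes rabbit 2 had the highest level of its group, 32.7 CPM against 17.3 to 21.7 CPM in the others. Its gap to the next rabbit was 0.715 of the range of the group, just beyond the critical value of 0.71. Chance flags about 1 in 20 groups, so 1 of 19 is near what chance gives.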

How the results depend on the processing

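Of the 9 genes, 4 were called higher. The count was 2 without a filter on low counts, 0 with the study's thresholds in edgeR (adjusted p below 1e-05 and a log2 fold change beyond 2), and 1, *SFRP2*, when DESeq2 was used with them, a combination chosen after seeing the data. Leaving out 1 rabbit gave 0 to 3. Of the other Wnt genes, 8 were higher and 2 lower. Higher genes numbered 4 with at least 10 counts in every library, 5 with a log2 fold change beyond 1, 0 at the study's thresholds in either tool, and 0 to 8 with 1 rabbit left out, while lower genes numbered 5 in DESeq2, 0 at the study's thresholds in either tool and 0 to 2 with 1 rabbit left out. Of all genes, 951 were higher and 1356 lower. DESeq2 called 1720 higher. At the study's thresholds edgeR called 0 in each direction and DESeq2 105 and 95. Leaving out 1 rabbit gave 0 to 1267 higher and 0 to 1628 lower, with 0 of each without control 2, where 1624 and 2098 had an unadjusted p below 0.05.

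The correlations of deviations from the group means were -0.317, 0.161 and -0.238 for replicate numbers 1, 2 and 3. They gave no sign that the numbers pair the rabbits, but so few values cannot settle it. With the number as a block, edgeR called 0 of the 9 genes, 0 other Wnt genes and 0 genes in all in each direction. Perthes rabbits 4 and 5 have no control of the same number. Under the block the group difference therefore rested only on numbers 1, 2 and 3 of each group. Unadjusted p-values under this block were below 0.05 for 5 of the 9 genes higher and 0 lower, for 8 and 5 other Wnt genes, and for 1504 and 1648 of all genes. The log2 fold changes under the block were 4.93 for *SFRP2* (adjusted p 0.0933), 3.59 for *DKK2* (0.103), 2.54 for *DKK3* (0.152) and 0.88 for *AXIN2* (0.187).

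The sign turned only for uncalled genes and only with a rabbit left out. Over the rabbits left out, the log2 fold change ran from -0.16 to 1.04 for *SFRP4*, from -0.53 to 0.35 for *FRZB*, from -0.22 to 0.14 for *DKK1* and from -0.051 to 0.79 for *WIF1*. *SFRP4* was at -0.16 without Perthes rabbit 4 and at -0.16 without control 1, and *FRZB* at 0.35 without control 3. *DKK1* was at 0.14 without Perthes rabbit 1, 0.017 without Perthes rabbit 4 and 0.088 without control 3. *WIF1* was at -0.051 without control 1 and -0.0020 without control 2. Over the 19 genes and all alternatives, 166 values kept direction and side of the threshold, 87 lost the call, 2 gained it and 8 changed sign. With fewer rabbits the test has less power, and for the rest the cause was not tested. Scaling by library totals alone moved the median of all genes from 0.025 to -0.062.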
